A study of Homo sapiens with 6 samples.

Results

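The genes described here are 48 mitosis and spindle genes, of 58825 genes in the deposited tables, chosen by name for their roles in mitotic entry, spindle assembly, chromosome segregation and cytokinesis. Each of the 48 symbols matched a single gene, and all 48 were among the 20295 genes that passed the filter on low counts. The cells were NCI-H460, a line from a large cell carcinoma of the lung that the sample labels call an adenocarcinoma line. Cells were infected with virus carrying a control shRNA (NC-shRNA, 3 libraries) or shRNA against PRMT5 (PRMT5-shRNA, 3 libraries), so both groups carried a viral vector and a hairpin. The sample titles call the control a GFP knockdown, whereas the methods list a control shRNA without naming a target. The methods describe stably infected cells selected with puromycin, and the labels do not say which of the 3 PRMT5 hairpins was sequenced. Together these genes held from 0.497% to 0.519% of all counts in each library. Without the gene MKI67, PRMT5-shRNA replicate 3 was at 0.488%, against 0.457% and 0.464% for the others of its group. The authors call the replicates biological, but neither they nor the labels say whether these were separate infections or cultures of a single selected pool. The tests measure the spread between these libraries, whatever its source.

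Cells enter mitosis when cyclin B binds and activates CDK1, with Polo-like and Aurora kinases acting alongside. The spindle checkpoint then holds the anaphase-promoting complex inactive until every kinetochore is attached to microtubules, after which cyclin B and securin are degraded and the chromatids part. Most of these genes are transcribed in G2 and mitosis, under the DREAM and MuvB complexes, B-MYB and FOXM1, so in a bulk culture their transcript level also follows the share of cells in those phases. A lower share of dividing cells and less transcript per dividing cell cannot be told apart here.

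PRMT5 transcript was far lower in every PRMT5-shRNA library, with a log2 fold change of -1.62 (standard error, SE, 0.094, adjusted p = 0.0063 by edgeR). An exact permutation test of 3 libraries against 3 cannot go below p = 0.10, for PRMT5 or any other gene. Against this knockdown, the mitotic genes as a set stayed close to their control level. Together the 48 genes held 0.499%, 0.502% and 0.497% of all counts with NC-shRNA, and 0.508%, 0.509% and 0.519% with PRMT5-shRNA. Counts were scaled by TMM, which sets library sizes so that most genes do not differ, and are given as CPM, counts scaled to that size. On this scale the summed level was 5083 ± 108 CPM in NC-shRNA and 5037 ± 60.5 CPM in PRMT5-shRNA cells (SD, n = 3 each). The share of all counts was thus slightly higher in every PRMT5-shRNA library, while the scaled sums of the groups overlapped. MKI67 carried this. Without it the share was 0.473%, 0.472% and 0.470% with NC-shRNA and 0.457%, 0.464% and 0.488% with PRMT5-shRNA, so PRMT5-shRNA replicates 1 and 2 were below every control and replicate 3 above.

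The quasi-likelihood test of edgeR called 0 of the 48 members at an adjusted p under 0.05, with 0.0197% of all tested genes called lower and 0.0493% higher. DESeq2 called 1 member lower (BIRC5) and 1 higher (MKI67), against 1.36% and 1.81% of the genes to which it gave an adjusted p, and limma on log2(FPKM + 1), with FPKM the deposited values scaled by transcript length and library size, called 0. At an unadjusted p under 0.05 in edgeR, 6 members were lower (12.5%) and 1 was higher (2.08%), against 6.29% and 6.54% of all tested genes. The 3 PRMT5-shRNA libraries lay below all 3 NC-shRNA libraries for 7 members (14.6%) and above them for 1 (2.08%), against 10.7% and 11.0% of all tested genes. The lower share was thus above the background and the higher share below it, by a handful of genes each, and neither difference was tested. That background includes genes with fewer counts than any member. The median SE was 0.182 over all tested genes and 0.087 over the members, so these shares are not on a like footing.

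Library totals and FPKM kept a larger share of lower members with separate groups than the background. Fewer members were lower by p than under TMM. With RLE size factors in place of TMM, 7 members were lower and 1 higher at an unadjusted p under 0.05 (14.6% and 2.08%). Of all tested genes, 6.56% and 6.31% were. Under library totals alone, 3 members were lower and 2 higher at an unadjusted p under 0.05 (6.25% and 4.17%), against 4.02% and 9.23% of all tested genes. Groups were then separate for 6 lower and 4 higher members (12.5% and 8.33%), against 7.31% and 14.6%. In FPKM they were separate for 6 lower and 5 higher members (12.5% and 10.4%), against 7.75% and 16.5%.

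Single libraries moved these counts. At an unadjusted p under 0.05, 3 members were lower without NC-shRNA replicate 2 or PRMT5-shRNA replicate 1 (6.25%, against 4.72% and 5.13% of all tested genes). Without NC-shRNA replicate 3, 9 were lower (18.8%, against 6.71%), and without NC-shRNA replicate 1, 4 were higher (8.33%, against 5.47%). Groups of 2 and 3 libraries separate more easily, and without NC-shRNA or PRMT5-shRNA replicate 3 they did so for 12 lower members of 48, against 16.4% and 14.6% of all tested genes. Without PRMT5-shRNA replicate 2, they did so for 10 lower and 6 higher members (20.8% and 12.5%), against 15.6% and 16.5%.

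Changes were small. Of the 48 log2 fold changes, 45 were under 0.25 in size, and for 43 members the 95% confidence interval lay within a 1.5-fold change either way. The 5 exceptions were AURKA, BIRC5, PRC1, MKI67 and FOXM1, whose intervals reached further. The median log2 fold change was -0.05 over the members and 0.0075 over all tested genes. Of the members, 30 were below 0 and 18 above (62.5% below 0, against 48.8% of all tested genes). Scaled by library totals alone, the medians were 0.0034 and 0.057, with 23 members below 0 and 25 above. By limma on log2(FPKM + 1), 20 members were below 0 and 28 above. The sign of the members' median thus depended on the scaling. A change of scaling moves all genes by about the same amount, so an unchanged gap between both medians is no test of stability.

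**Figure D1:**
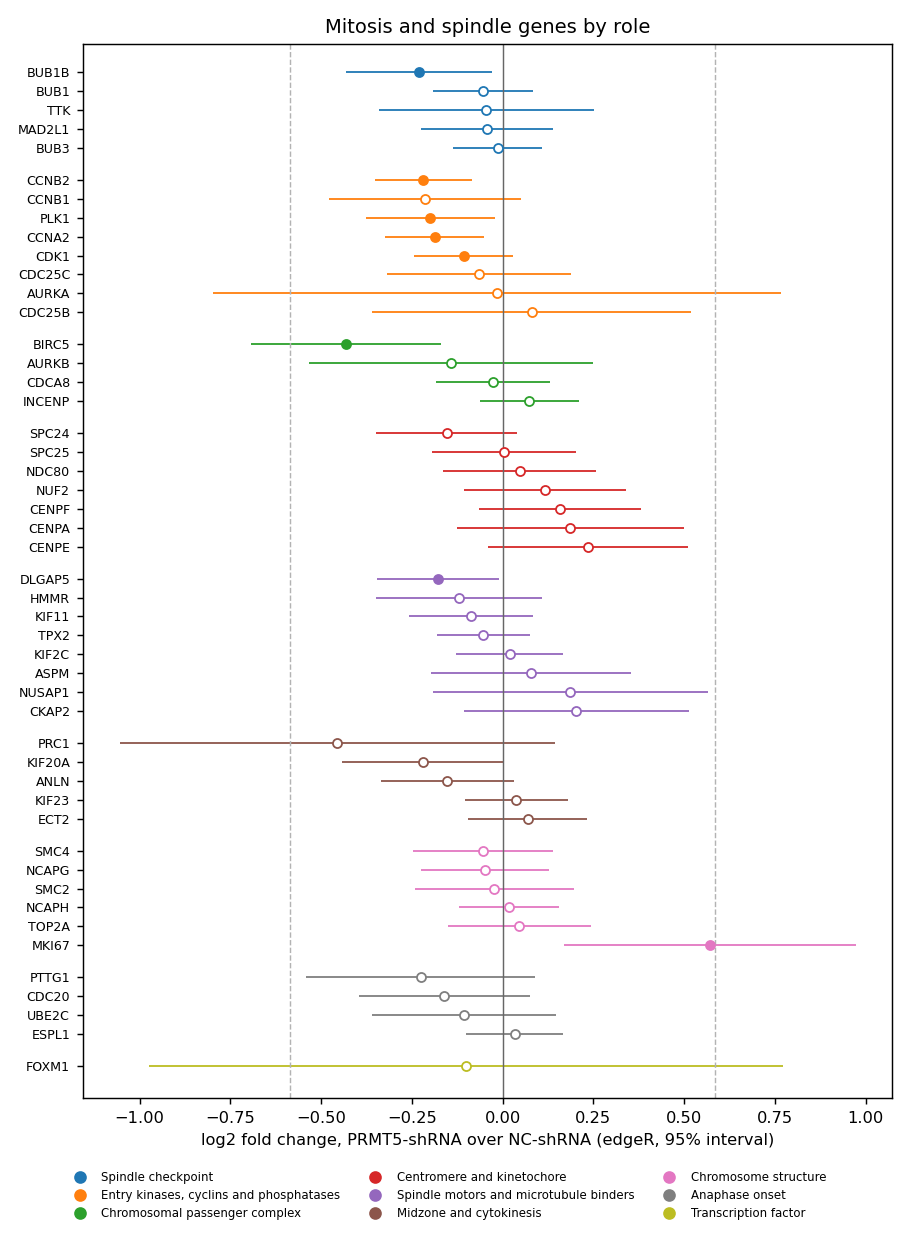
Points give the edgeR log2 fold change of each of the 48 members between PRMT5-shRNA and NC-shRNA libraries (n = 3 each), with 95% confidence intervals, grouped by role. Filled points mark the 8 members whose groups do not overlap, and dashed lines mark a 1.5-fold change; most intervals lie between them.

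The promoters of the members share elements that the choice of genes did not use. A RefSeq promoter (GRCh38.p14, 250 bases before to 50 after the start) was found for 41 of 48 members, all but BUB3, TTK, AURKA, BIRC5, TPX2, UBE2C and FOXM1. The cell cycle homology region, written TTTGAA or TTCGAA, was searched on both strands, as were the NF-Y box CCAAT and the E2F sites TTTCGCGC and TTTGGCGC. A homology region was present for 31 of the 41 members (75.6%) and for 19.5% of all 27305 genes with a promoter, or 15.8% of the 12065 tested ones. CCAAT was present for 31 members (75.6%) and 39.7% of all genes, both elements in the same promoter for 24 members (58.5%) and 7.85%, and an E2F site for 2 members (4.88%) and 1.40%. Such a match is a description of letters and shows no binding. The 24 members with both elements had a median log2 fold change of -0.011 and the other 17 of -0.05. Promoters are given with the values for BUB1B, CENPE, PRC1 and MKI67, the named members with an entry and the largest fold changes in either direction, 5′ to 3′ on the gene's strand with homology regions and CCAAT boxes in capitals.

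The kinases, cyclins and phosphatases of mitotic entry held 3 of the 6 members lower at an unadjusted p under 0.05 and 4 of the 7 lower with separate groups. Of all tested genes, 6.29% were lower at that p and 10.7% were lower with separate groups. This role group was not tested against the others. Of 8 members, 7 were below 0 under TMM scaling and 6 under library totals alone. CCNB2 (cyclin B2, an activating partner of CDK1, chromosome 15, 59105078 to 59125045) had 78.2, 79.2 and 76.3 CPM with NC-shRNA and 65.7, 68.8 and 66.4 CPM with PRMT5-shRNA. The NC-shRNA libraries were all higher, and each group was tight. This gave a log2 fold change of -0.22 (SE 0.057, adjusted p = 0.234 by edgeR).

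CCNA2 (cyclin A2, which acts in S phase and G2) had 89.2, 87.4 and 89.1 CPM with NC-shRNA and 76.2, 81.3 and 75.7 CPM with PRMT5-shRNA. The groups did not overlap, with PRMT5-shRNA replicate 2 nearest to the controls. Its log2 fold change was -0.19 (SE 0.058, adjusted p = 0.287 by edgeR). The gene lies opposite EXOSC9, and the counting is not stated to use strand.

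PLK1 (Polo-like kinase 1, needed for centrosome maturation and mitotic entry) had 117, 106 and 99.7 CPM with NC-shRNA and 96.7, 93.8 and 90.8 CPM with PRMT5-shRNA. The lowest NC-shRNA library, replicate 3, was only just above the highest PRMT5-shRNA library. PLK1 had a log2 fold change of -0.20 (SE 0.075, adjusted p = 0.341 by edgeR).

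CDK1, the kinase at the centre of this group, had 122, 119 and 121 CPM with NC-shRNA and 113, 107 and 117 CPM with PRMT5-shRNA. The groups were separate, but by a small margin. Its log2 fold change was -0.11 (SE 0.057, adjusted p = 0.474 by edgeR), with a 95% confidence interval from -0.24 to 0.029.

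CCNB1 (cyclin B1), the most abundant entry gene at a mean of 58.2 FPKM, had 206, 171 and 157 CPM with NC-shRNA and 144, 167 and 150 CPM with PRMT5-shRNA. PRMT5-shRNA replicate 2 was above NC-shRNA replicate 3, so the groups overlapped. For CCNB1 this made a log2 fold change of -0.21 (SE 0.112, adjusted p = 0.466 by edgeR), from -0.30 without NC-shRNA replicate 3 to -0.09 without NC-shRNA replicate 1.

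AURKA (Aurora kinase A, of centrosomes and spindle poles) varied within groups far more than between them. It had 214, 109 and 195 CPM with NC-shRNA and 103, 208 and 202 CPM with PRMT5-shRNA. NC-shRNA replicate 2 and PRMT5-shRNA replicate 1 were low and the other 4 libraries high. The log2 fold change was -0.02 with an SE of 0.330 (adjusted p = 0.99, edgeR), from -0.26 without NC-shRNA replicate 2 to 0.24 without PRMT5-shRNA replicate 1. No annotated gene overlaps AURKA on either strand, and its pseudogene AURKAP1 had 138 to 226 counts in the libraries, against 5621 to 14516 counts of AURKA. The remaining entry genes, CDC25B and CDC25C, had log2 fold changes of 0.08 and -0.07.

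The chromosomal passenger complex, which corrects faulty kinetochore attachments and later directs cytokinesis, joins Aurora kinase B to INCENP, borealin (CDCA8) and survivin (BIRC5). BIRC5 (chromosome 17, 78214186 to 78225636) had 40.2, 38.4 and 46.4 CPM with NC-shRNA and 32.7, 32.7 and 27.3 CPM with PRMT5-shRNA. All 3 NC-shRNA libraries were higher, and replicate 3 was the highest of one group and the lowest of the other. The mean was 41.7 ± 4.20 CPM with NC-shRNA and 30.9 ± 3.10 CPM with PRMT5-shRNA (SD, n = 3 each), or 74.1% of control, with a log2 fold change of -0.43 (SE 0.111). It did not pass in edgeR (adjusted p = 0.233) and did in DESeq2 (adjusted p = 0.034), with adjusted p-values from 0.034 to 0.467 over 16 alternatives.

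Its partners had fold changes nearer to 0, but a difference from BIRC5 was not tested. AURKB had 55.8, 38.4 and 50.1 CPM with NC-shRNA and 38.9, 40.3 and 51.4 CPM with PRMT5-shRNA. The groups overlapped, with NC-shRNA replicate 2 the lowest of all 6. The log2 fold change was -0.14 for AURKB (95% confidence interval from -0.53 to 0.25, and from -0.28 without NC-shRNA replicate 2 to -0.02 without NC-shRNA replicate 1), -0.03 for CDCA8 and 0.07 for INCENP, and none of the 3 passed in edgeR or DESeq2.

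**Figure D2:**
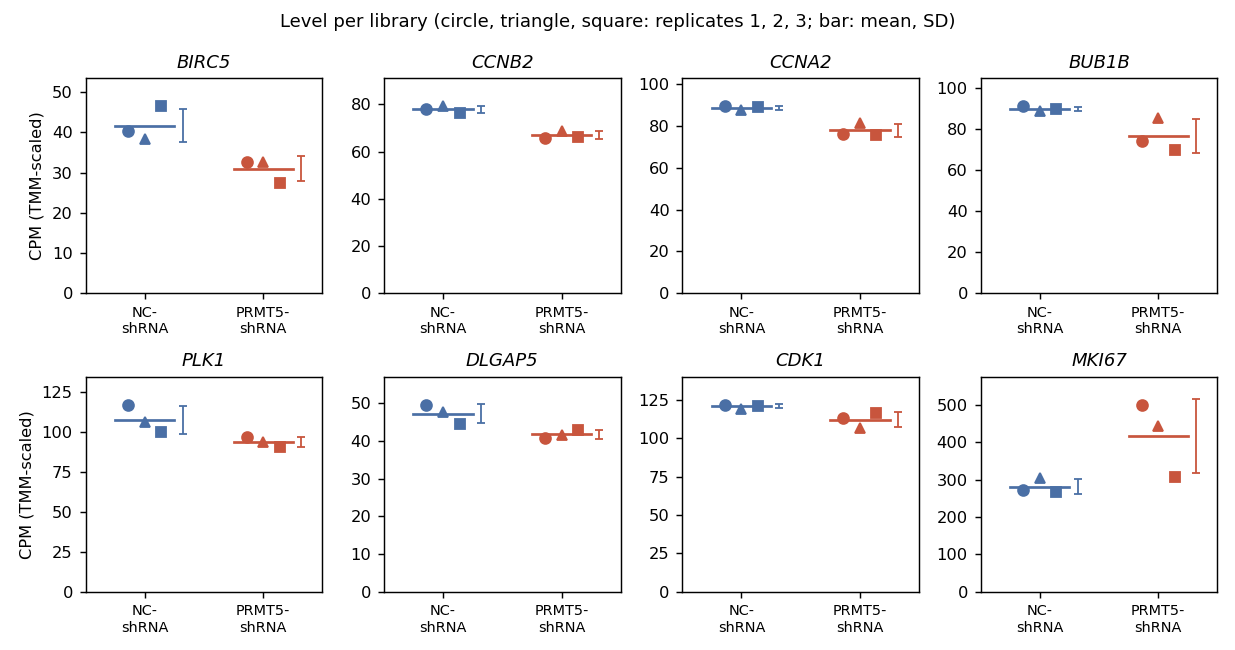
TMM-scaled CPM in each library for the 8 members whose groups do not overlap, with NC-shRNA in blue and PRMT5-shRNA in red. Horizontal bars are means and error bars are SD (n = 3); 7 members are lower in PRMT5-shRNA cells and MKI67 is higher.

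All 5 spindle checkpoint genes were below 0 under TMM scaling, and 2 of 5 under library totals alone, with a median log2 fold change of -0.04. Without PRMT5-shRNA replicate 2, 3 of 5 were below 0, with a median of -0.016, and the median was -0.08 without PRMT5-shRNA replicate 1. BUB1B (BUBR1, part of the complex that inhibits CDC20, chromosome 15, 40161023 to 40221136) had 90.9, 88.7 and 89.7 CPM with NC-shRNA and 74.2, 85.5 and 69.7 CPM with PRMT5-shRNA. The NC-shRNA libraries were close together and all higher, with PRMT5-shRNA replicate 2 near them. BUB1B had a log2 fold change of -0.23 (SE 0.085, adjusted p = 0.334 by edgeR). The overlapping gene BUB1B-PAK6 had 0 counts in every library. BUB1, TTK, MAD2L1 and BUB3 lay between -0.05 and -0.01, and their groups overlapped. The promoter of BUB1B (GRCh38.p14, plus strand, chr15:40160819-40161118) has a homology region, TTTGAA, starting 23 bases before the start.
BUB1B: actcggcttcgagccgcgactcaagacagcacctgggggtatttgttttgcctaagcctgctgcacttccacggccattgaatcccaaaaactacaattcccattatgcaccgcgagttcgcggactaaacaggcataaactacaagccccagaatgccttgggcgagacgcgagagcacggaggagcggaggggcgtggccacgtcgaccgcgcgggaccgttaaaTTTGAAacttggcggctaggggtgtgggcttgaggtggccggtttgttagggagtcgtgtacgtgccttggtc

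Under TMM scaling, the centromere and kinetochore genes were the only role group with more members above 0 than below, 6 against 1, with a median log2 fold change of 0.12 there and 0.17 under library totals alone. Leaving out 1 library changed this, to 4 against 3 without NC-shRNA replicate 1 and to medians of 0.066 and 0.062 without PRMT5-shRNA replicates 2 and 3. Chromosome structure genes were 4 above and 2 below 0 without replicate 2 of either group, and midzone genes 3 above and 2 below with PRC1 summed with its overlapping gene. The groups were separate for 0 of the 7 kinetochore genes in CPM, and for CENPE in FPKM. CENPE, a kinesin that moves chromosomes to the spindle equator, had 13.1, 11.8 and 10.9 CPM with NC-shRNA and 14.5, 12.9 and 14.7 CPM with PRMT5-shRNA. NC-shRNA replicate 1 was just above PRMT5-shRNA replicate 2, so the groups overlapped by a single pair. CENPE had a log2 fold change of 0.23 (SE 0.116, adjusted p = 0.444 by edgeR). In the promoter of CENPE (GRCh38.p14, minus strand, chr4:103198294-103198593) none of the letters searched were found, so it has no capitals.
CENPE: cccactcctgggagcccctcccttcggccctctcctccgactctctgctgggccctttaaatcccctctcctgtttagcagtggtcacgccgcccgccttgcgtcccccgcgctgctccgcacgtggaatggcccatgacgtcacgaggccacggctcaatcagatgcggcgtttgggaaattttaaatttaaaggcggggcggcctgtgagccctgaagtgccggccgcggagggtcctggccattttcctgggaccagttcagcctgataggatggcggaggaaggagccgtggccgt

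CENPF, the most abundant of the group, had a log2 fold change of 0.16 (adjusted p = 0.53, edgeR). CENPA, the histone variant that marks centromeres, had 0.19 (adjusted p = 0.602, edgeR). Without PRMT5-shRNA replicate 3 CENPF was at 0.06, and without PRMT5-shRNA replicate 2 CENPA was at 0.07. CENPA overlaps SLC35F6 on the same strand, which had 3510, 1012 and 2898 counts with NC-shRNA and 2552, 3541 and 2707 with PRMT5-shRNA. CENPA had 780, 839 and 712 counts with NC-shRNA and 628, 1080 and 751 with PRMT5-shRNA. The neighbour was low in NC-shRNA replicate 2, where CENPA was not. Fitted as a single gene, a choice made after seeing the data, they had a log2 fold change of 0.31 (SE 0.295, adjusted p = 0.703 by edgeR). How reads were divided between both genes was not tested.

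Among spindle motors and microtubule binders, 4 were below 0 and 4 above. DLGAP5 (HURP, which stabilises microtubules near chromosomes) had 49.6, 47.7 and 44.5 CPM with NC-shRNA and 40.8, 41.5 and 43.0 CPM with PRMT5-shRNA. The groups were separate by a small margin at NC-shRNA replicate 3. Its log2 fold change was -0.18 (SE 0.071, adjusted p = 0.366 by edgeR). TPX2, which activates Aurora A on spindle microtubules and was the most abundant of the 48 at a mean of 86.4 FPKM, had a log2 fold change of -0.05 with a 95% confidence interval from -0.18 to 0.075. CKAP2 had 0.20 and NUSAP1 had 0.19, both with overlapping groups. Over 16 alternatives CKAP2 ranged from 0.11 to 0.37, highest without NC-shRNA replicate 2, and NUSAP1 from 0.07 to 0.40, highest without NC-shRNA replicate 1.

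Of the midzone and cytokinesis genes, PRC1, which bundles the microtubules of the central spindle, had the lowest log2 fold change of all 48. It had 14262, 14792 and 10940 counts with NC-shRNA and 6440, 7579 and 12233 with PRMT5-shRNA. PRMT5-shRNA replicates 1 and 2 were low, while replicate 3 was at the control level, so the groups overlapped. The log2 fold change was -0.46 (SE 0.253, adjusted p = 0.493 by edgeR), and -0.83 without PRMT5-shRNA replicate 3. The promoter of PRC1 (GRCh38.p14, minus strand, chr15:90994486-90994785) has CCAAT 53 bases and a homology region, TTTGAA, 20 bases before the start.
PRC1: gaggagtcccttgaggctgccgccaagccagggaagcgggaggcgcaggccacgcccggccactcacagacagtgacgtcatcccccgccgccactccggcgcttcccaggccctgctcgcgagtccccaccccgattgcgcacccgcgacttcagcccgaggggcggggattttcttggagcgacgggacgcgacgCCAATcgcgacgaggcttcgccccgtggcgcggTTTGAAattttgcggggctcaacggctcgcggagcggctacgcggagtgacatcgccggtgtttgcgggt

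PRC1 (chromosome 15, 90966038 to 90995629, minus strand) overlaps the protein-coding gene AC068831.7 (90966190 to 91022566) on the same strand. AC068831.7 had 5994, 6076 and 5110 counts with NC-shRNA and 9069, 11367 and 5737 counts with PRMT5-shRNA. It was thus high in PRMT5-shRNA replicates 1 and 2, the same libraries in which PRC1 was low. The sum of both genes was 20256, 20868 and 16050 counts with NC-shRNA and 15509, 18946 and 17970 with PRMT5-shRNA. Fitted as a single gene, a choice made after seeing the data, they had 287 ± 24.9 and 289 ± 21.2 CPM (SD, n = 3 each) and a log2 fold change of 0.011 (SE 0.085, adjusted p = 0.973 by edgeR). How StringTie divided reads between both genes was not tested.

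**Figure D3:**
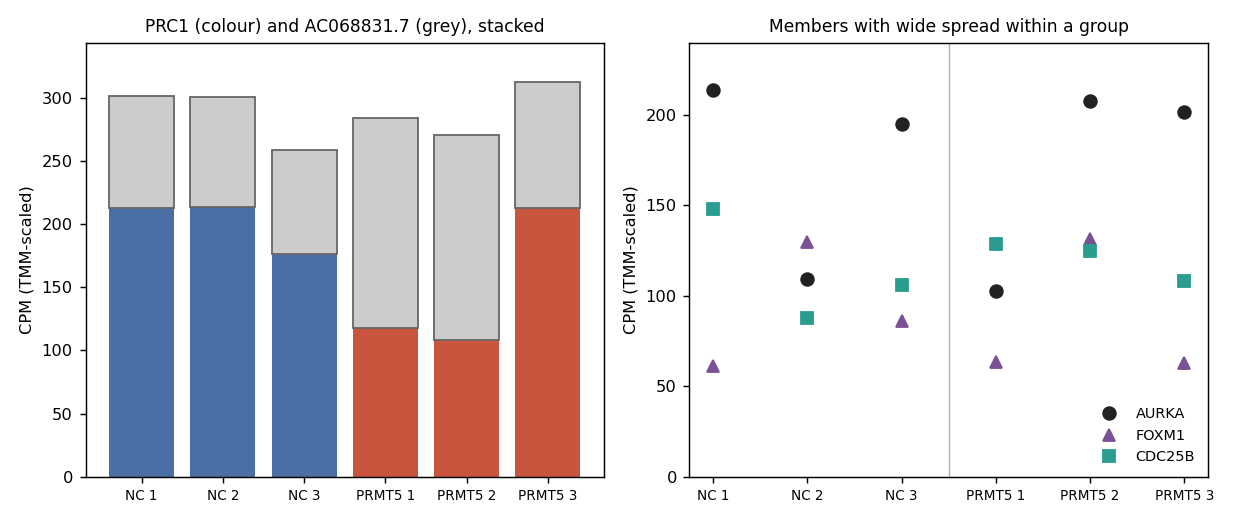
Left, TMM-scaled CPM of PRC1 (blue in NC-shRNA, red in PRMT5-shRNA) with the overlapping gene AC068831.7 stacked on top in grey, for each library. Right, the level of AURKA, FOXM1 and CDC25B in each library; the high and low libraries differ from gene to gene and lie in both groups.

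The kinesin KIF20A had a log2 fold change of -0.22 (adjusted p = 0.397, edgeR), and the contractile ring protein ANLN had -0.15 (adjusted p = 0.454, edgeR). KIF23 and ECT2, which carry and activate the signal for the contractile ring, had 0.04 and 0.07. The groups overlapped for all 4 genes. Over 16 alternatives KIF20A ranged from -0.31 to -0.15 and ANLN from -0.22 to -0.09.

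The genes of chromosome structure were nearly flat apart from MKI67. TOP2A (topoisomerase II alpha, which untangles sister chromatids) had 412, 475 and 491 CPM with NC-shRNA and 474, 445 and 503 CPM with PRMT5-shRNA. The groups overlapped throughout, and the log2 fold change was 0.05 (SE 0.083). The condensin genes SMC2, SMC4, NCAPG and NCAPH lay between -0.05 and 0.02.

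MKI67 encodes Ki-67, the proliferation marker that coats mitotic chromosomes, and was after TMM scaling the only member higher in every PRMT5-shRNA library. In FPKM, BUB3, INCENP, CENPE and ESPL1 were too. It lies on chromosome 10 from 128096659 to 128126385 on the minus strand. It had 272, 305 and 267 CPM with NC-shRNA and 501, 444 and 309 CPM with PRMT5-shRNA. PRMT5-shRNA replicate 3 was barely above NC-shRNA replicate 2, and most of the difference lay in replicates 1 and 2. The log2 fold change was 0.57 (SE 0.169), with a 95% confidence interval from 0.17 to 0.97. It did not pass in edgeR (adjusted p = 0.278) and did in DESeq2 (adjusted p = 0.044), with adjusted p-values from 0.044 to 0.479 over 16 alternatives. Its log2 fold change ranged from 0.42 to 0.75 over those alternatives. The promoter of MKI67 (GRCh38.p14, minus strand, chr10:128126374-128126673) has TTTGAA starting 47 and 29 bases before the start, and CCAAT on the other strand (ATTGG as written) at 98 and 24 bases before it, the nearer sharing a base with TTTGAA. The promoter of PRC1 carries the same pair of elements.
MKI67: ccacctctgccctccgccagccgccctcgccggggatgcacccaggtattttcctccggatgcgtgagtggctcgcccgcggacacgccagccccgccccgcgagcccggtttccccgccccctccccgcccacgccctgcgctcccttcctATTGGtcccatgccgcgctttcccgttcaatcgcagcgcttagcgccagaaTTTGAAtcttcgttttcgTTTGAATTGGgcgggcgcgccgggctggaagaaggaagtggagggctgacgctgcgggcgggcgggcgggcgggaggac

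Of the genes of anaphase onset, PTTG1 (securin) had a log2 fold change of -0.23 (adjusted p = 0.522, edgeR), CDC20 -0.16, UBE2C -0.11 and ESPL1 (separase) 0.03. For each of the 4, the groups overlapped, and NC-shRNA replicate 1 was the highest library for PTTG1, CDC20 and UBE2C. Without that library they were at -0.07, -0.06 and 0.0054.

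FOXM1, a transcription factor of many of these genes, had 61.2, 130 and 85.9 CPM with NC-shRNA and 63.5, 132 and 63.0 CPM with PRMT5-shRNA. The second replicate of each group was about as high, and the other 4 libraries were lower. The log2 fold change was -0.10 with an SE of 0.368 (adjusted p = 0.934, edgeR), from -0.55 without PRMT5-shRNA replicate 2 to 0.23 without NC-shRNA replicate 2. AURKA and PRC1 were both low in PRMT5-shRNA replicate 1, and in NC-shRNA replicate 2 FOXM1 was high and AURKA low.

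Such spread was not typical of the set. The highest library exceeded the lowest of its group by more than 1.5 times for 6 of 48 members (12.5%), against 22.7% of 12413 tested genes with a mean of at least 1 FPKM. After FOXM1, AURKA, PRC1, CDC25B and MKI67, the sixth was NUSAP1. The median ratio was 1.19 for the members and 1.24 for those genes.

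Fold changes of the members were higher for long transcripts. By the longest annotated transcript, the Spearman correlation between length and log2 fold change was 0.313 across the 48 members and 0.136 across 20221 tested genes, a description over genes that share the same 6 libraries. MKI67 had the longest transcript of the members, 12678 bases, followed by ASPM (10887 bases), CENPF (10307 bases) and CENPE (8612 bases), and all 4 were above 0. The median was -0.02 for the 24 longer members and -0.11 for the 24 shorter ones. Over all tested genes, the medians above and up to the same length were 0.05 and -0.02. The part of length in these differences was not tested further.

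**Figure D4:**
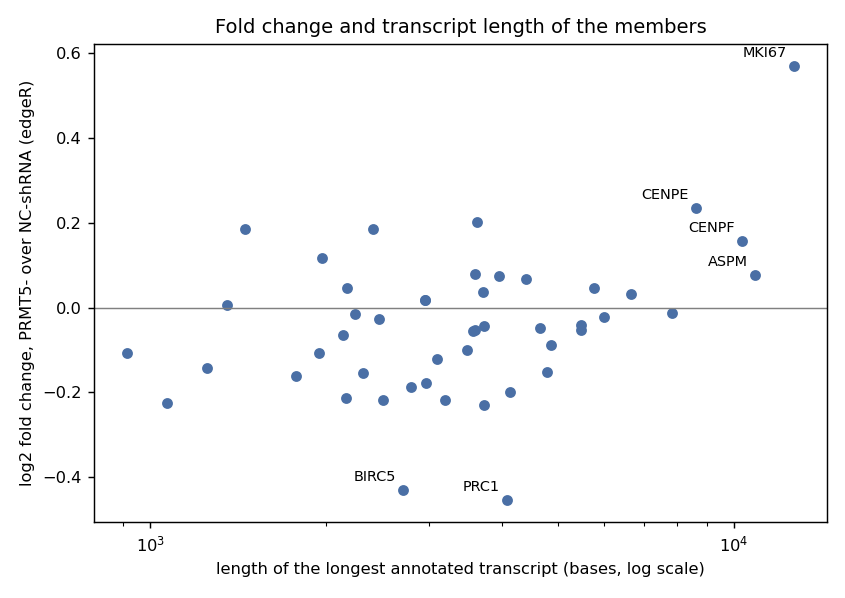
Each point is a member, with the length of its longest annotated transcript in bases on a log scale and its edgeR log2 fold change between PRMT5-shRNA and NC-shRNA libraries (n = 3 each). The 4 longest transcripts, MKI67, ASPM, CENPF and CENPE, all lie above 0.

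Further genes of the same machinery were taken from 7 lists of 116 genes in all, each tested. At an adjusted p under 0.05, edgeR called 0, DESeq2 called 1 (CLASP1, higher) and limma called 0. Of all genes with an adjusted p in DESeq2, it called 1.36% lower and 1.81% higher. At an unadjusted p under 0.05 in edgeR, 7 were lower and 7 higher, near the 6.29% and 6.54% of all tested genes. The median log2 fold change of the 116 genes was -0.03. The gene closest to passing was CLASP1, which stabilises microtubule plus ends at kinetochores. It had 5723, 7049 and 6416 counts with NC-shRNA and 8200, 10489 and 9066 with PRMT5-shRNA. Every PRMT5-shRNA library was higher, and the log2 fold change was 0.66 (SE 0.085, adjusted p = 0.09 by edgeR). In the same list of spindle and cytokinesis genes, STMN1 (stathmin, which destabilises microtubules) had -0.48 (adjusted p = 0.302, edgeR), with all PRMT5-shRNA libraries below.

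Among the other kinetochore genes, log2 fold changes ran from -0.46 for CENPW to 0.48 for NSL1, with a median of -0.07. The groups did not overlap for 5 lower and 2 higher of the 30, where 10.7% and 11.0% of all tested genes were separate. The 17 genes of the anaphase-promoting complex and its regulators ran from -0.24 for ANAPC7 to 0.17 for FBXO5. Of these, 15 were below 0, as were 48.8% of all tested genes. The 15 cohesin genes ran from -0.10 for SGO2 to 0.18 for ESCO1, with 5 below 0 and 10 above. The 4 other condensin genes ran from -0.13 for NCAPD3 to -0.05 for NCAPD2. The 10 other kinases and phosphatases ran from -0.21 for CDC25A to 0.20 for PKMYT1, with 7 below 0 and 3 above. All fold changes of these lists are under TMM scaling, and signs this close to 0 can change with the scaling.

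Of the DREAM and MuvB regulators, which repress or activate mitotic genes, 3 of 13 were higher at an unadjusted p under 0.05 and 0 were lower, against 6.54% and 6.29% of all tested genes. They ran from -0.11 for RBBP4 to 0.85 for LIN52. LIN52 had 460, 1189 and 337 counts with NC-shRNA and 826, 1435 and 1011 with PRMT5-shRNA. NC-shRNA replicate 2 was as high as the PRMT5-shRNA libraries, and the SE was 0.419 (adjusted p = 0.441, edgeR). LIN52 was thus not among the 3 genes higher at an unadjusted p under 0.05.

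For comparison, 9 of 36 DNA replication genes were lower at an unadjusted p under 0.05 and 0 higher, with a median of -0.10, and the groups did not overlap for 13 lower and 1 higher. Over all tested genes these shares were 6.29% and 6.54% by p, and 10.7% and 11.0% by overlap. RRM2 (a subunit of ribonucleotide reductase) had the lowest value, -0.75 (adjusted p = 0.282, edgeR). Of 18 G1 regulators, 2 were lower and 1 higher at that p, from -0.30 for CCNE2 to 0.67 for CCND2. At an adjusted p under 0.05, edgeR and limma called 0 of these genes and DESeq2 called 1 (RRM2, lower). Of all genes with an adjusted p in DESeq2, it called 1.36% lower. The lists were not tested against each other.

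**Figure D5:**
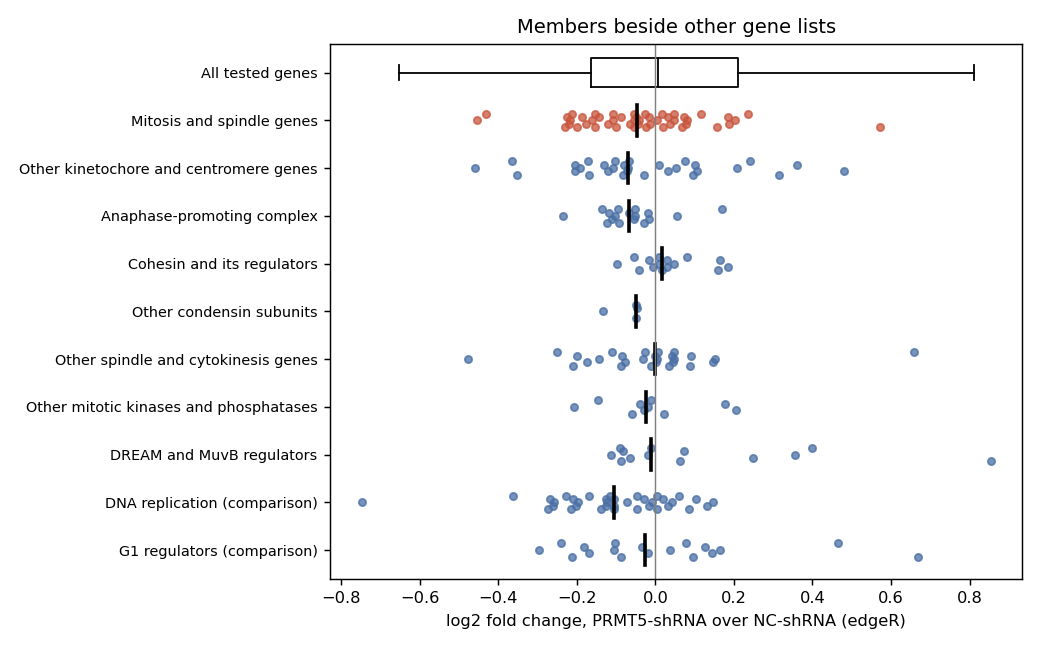
Points are edgeR log2 fold changes between PRMT5-shRNA and NC-shRNA libraries for the 48 members (red) and for the genes of each further list (blue), with black bars at the medians. The box shows the quartiles of all 20295 tested genes, with whiskers from the 5th to the 95th percentile, and includes genes with fewer counts than any member.

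Of the epithelial markers, KRT18 was high in all libraries at a mean of 143 FPKM, while EPCAM was low at 0.457 FPKM. All 4 were below 0 in log2 fold change, with a median of -0.23. Of these, 2 were lower in every PRMT5-shRNA library, against 10.7% of all tested genes. Their sum was 313, 299 and 282 FPKM with NC-shRNA and 269, 264 and 276 FPKM with PRMT5-shRNA, so these groups did not overlap. CDKN2A and MTAP, described as deleted in this line, were not at 0, at means of 5.9 and 1.94 FPKM. Of 6 endothelial markers, 4 were higher in every PRMT5-shRNA library, as were 11.0% of all tested genes, and their summed level was 1.45, 1.60 and 1.47 FPKM with NC-shRNA and 2.22, 2.02 and 2.66 with PRMT5-shRNA. The most abundant was CDH5 at 1.58 FPKM. VWF was at 0 with NC-shRNA and had 128, 105 and 122 counts with PRMT5-shRNA, and was the only endothelial marker called by edgeR. Of 6 fibroblast markers, 2 were higher in every PRMT5-shRNA library, against 11.0% of all tested genes. COL1A2 was at 0, and DCN was the most abundant at 6.08 FPKM. Of 5 blood markers, 1 was higher and 1 lower in every PRMT5-shRNA library, against 11.0% and 10.7% of all tested genes. CD3E was at 0, and CD14 was the most abundant at 0.953 FPKM. Their part in the values of the mitotic genes was not tested.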

How the data were processed

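RNA of NCI-H460 cells was sequenced in 6 libraries, grouped by the sample labels into NC-shRNA and PRMT5-shRNA. The submitters' processing notes name cutadapt 1.9, HISAT2 2.0.4, StringTie 1.3.4d and GRCh38, whereas the methods write a mouse assembly for human reads. The authors' table holds an estimated count for each gene, in whole numbers, and the deposited FPKM values are StringTie's, scaled by transcript length and library total. Low values gather at 4 (1214 to 1319 genes a library, 283 to 546 at 3 or 5), so a count is not read as 1 fragment. Totals ran from 53531257 to 70518401, and members had 628 to 32909 counts. Counting noise was not separated from the spread between libraries.

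Counts were filtered with filterByExpr, scaled by TMM and tested with edgeR's quasi-likelihood test without a block (edgeR 4.0.16, R 4.3.3). P-values were adjusted by Benjamini-Hochberg over all 20295 tested genes. They measure only the spread between these libraries. The authors call the replicates biological, and the labels do not tell separate cultures from repeats. The design had assumed plain counts, and since the estimates were whole already no rounding was needed. An SE came from the F statistic and a 95% confidence interval from its degrees of freedom. The fits were tried on simulated counts. Alternatives were RLE factors, library totals alone, no filter, DESeq2 1.42.0, limma 3.58.1 on log2 FPKM (pseudocounts 1 and 0.1), counts divided by 4, a replicate block by the number in the label, and leaving out each library.

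Members, role groups and further lists were chosen with earlier results of these data known. The genes named are PRMT5, members at an adjusted or unadjusted p under 0.05, the 2 largest fold changes and the most abundant member of each role group, 8 well-known members, and the extremes of the further lists, but for 1 left out. Other members and markers are named where a range, an overlap or a list needed them. Gene positions and overlaps were read from GENCODE 29 (GRCh38). Of the 48 members, 8 overlap another gene on the same strand, of which CENPA and PRC1 have a neighbour with appreciable counts, and 18 overlap a gene on the other strand only. Kits in the methods mark strand, but the counting is not stated to use it.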

Additional observations from a re-analysis of the deposited data

How the results depend on the processing

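Scaling by library totals alone moved the members' median to 0.0034, with 3 lower and 2 higher members at an unadjusted p under 0.05 and 6 lower and 4 higher members with separate groups (4.02%, 9.23%, 7.31% and 14.6% of all tested genes). limma on log2(FPKM + 1) gave 2 lower and 2 higher at that p, 6 lower and 5 higher with separate groups (4.59%, 10.8%, 7.75% and 16.5% of all tested genes) and a median of 0.012. With a pseudocount of 0.1 these were 2, 2, 6, 5 and 0.013 (4.15%, 10.8%, 7.75% and 16.5% of all tested genes). For limma on log2(FPKM + 1) without a filter, 5 were lower and 3 higher at that p, with a median of 0.012. These were 10.4% and 6.25% of members, against 3.68% and 7.80% of all tested genes. Groups were then separate for 6 lower and 5 higher members (12.5% and 10.4%), against 4.85% and 10.1%. DESeq2 called 1 lower member (BIRC5, -0.44) and 1 higher (MKI67, 0.57), and no other alternative called any.

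With 1 library left out, 3 to 9 members were lower and 1 to 4 higher at an unadjusted p under 0.05. Of all tested genes, 4.49% to 6.71% and 4.72% to 6.69% were. Groups were separate for 9 to 12 lower and 1 to 6 higher members. These were 14.6% to 16.4% and 15.2% to 16.8% of all tested genes, since fewer libraries separate more easily. The members' median was -0.06 to -0.02. PRMT5 stayed between -1.66 and -1.54. Summing PRC1 with its neighbour, chosen after seeing the data, moved none of these counts, and left 29 members below 0 and 19 above.

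With the replicate block, PRMT5 was at -1.62 with an adjusted p of 0.144, and the counts of members stayed, with KIF20A in place of DLGAP5 among the 6 lower at an unadjusted p under 0.05. Same-numbered libraries did not deviate together (correlations of 0.0012, -0.039 and 0.064).

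Of 464 values of the 29 members named by the rule in the processing notes, under 16 alternatives, 33 had the other sign, in 10 genes, and none of these was below an unadjusted p of 0.05 in either fit. The members' median was below 0 under TMM and above 0 (0.0034) under library totals alone, so its sign depends on the scaling. Between 3 and 9 members were lower at an unadjusted p under 0.05 as single libraries were left out, so that count is loose. Of all tested genes, 4.49% to 6.71% were lower in those fits. Without a rescue by PRMT5 in these libraries, an effect of PRMT5 cannot be told from one of the hairpin. Whether fewer cells were in mitosis was not tested, and neither was protein level or phosphorylation.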
